A study of Mus musculus with 5 samples.

Results

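The cytochrome P450 genes of families 1 to 3, which encode the enzymes that oxidise most drugs and many steroids and fatty acids in the liver, were followed in the livers of mouse embryos. They were chosen by symbol alone, as every listed gene named Cyp followed by a family number from 1 to 3, a subfamily letter and a gene number, with pseudogene symbols ending in -ps left out. The rule found 49 genes of 23022 listed, of which 3 belong to family 1, 37 to family 2 and 9 to family 3.

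Messenger RNA of bulk liver tissue was sequenced at E18.5, an embryonic stage shortly before birth. The 4N group (n = 3) came from embryos lacking Hhex, a gene needed for liver formation, whose blastocysts had been injected with tetraploid (4N) embryonic stem cells carrying the red fluorescent label td-Tomato. The WT group (n = 2) came from normal embryos of the same age. Ploidy, the stem cell origin of the tissue, the Hhex genotype of the host and the embryo manipulation therefore differ together between the groups and cannot be told apart. The labels name no strain or stem cell line and do not say whether the embryos came from separate litters, so the p-values measure only the spread between these 5 samples. The share of liver cells that came from the injected cells is not given in the sources used here, and the host can still contribute blood, vessel and stromal cells.

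Microsomal P450 enzymes sit in the endoplasmic reticulum of hepatocytes and insert 1 oxygen atom into a lipid-soluble substrate, with electrons passed on by P450 oxidoreductase (Por). Families 1 to 3 grew by gene duplication, so that the mouse carries long runs of near-identical copies. Their genes are induced by foreign compounds through the aryl hydrocarbon receptor (Ahr), the constitutive androstane receptor (Nr1i3) and the pregnane X receptor (Nr1i2), and many of them rise around birth and after weaning.

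The values available were a table of 1 comparison, 4N against WT, with a mean normalized count over the 5 libraries, a log2 fold change, its standard error (SE) and a p-value for each gene. The files hold 1 value per gene for the whole comparison, so each group is given as a fitted mean and the spread between livers enters only through the SE. The table does not name its numerator, so the sign was read from genes without any reads in either one group or the other. The smallest SE such a gene can have depends on how many libraries are empty. At the negative extreme 12 genes had an SE below the limit for 2 empty libraries, against 0 at the positive extreme, so a negative value means lower in 4N, the group of 3. Hhex itself had a log2 value of 0.55 (SE 0.33, p = 0.286 after adjustment) in the authors' deposited table, which does not check the labels because the injected cells are not stated to lack it. Albumin (Alb), the main plasma protein made by hepatocytes, was by mean the most abundant of the hepatocyte markers, and its log2 fold change in the authors' deposited table was 0.01 (SE 0.22, p = 0.991 after adjustment). Of the 25 hepatocyte markers there, 13 were lower and 12, Alb among them, were not called.

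Because several members are near-copies whose transcripts moved differently, a small set of their promoters is shown first, each as the 150 bases before the RefSeq gene start (build GRCm38.p6, strand as given). Cyp2a12 and Cyp2a22 are neighbours with opposite directions of change, Cyp2c37 and Cyp2c50 lie in the same cluster and both fell steeply, Cyp2c68 rose, and Cyp3a11, Cyp3a25 and Cyp1a2 carried large falls. Capitals mark matches, on either strand, to 5 short motifs. TATAAA is the letter string of the TATA box. CAAAGTC is a core bound by Hnf4 receptors, and TTGCNNAA is a site of C/EBP factors. AGTTCA is a single arm of the sites bound by Nr1i2 and Nr1i3. GCGTG is the core bound by the aryl hydrocarbon receptor.
Cyp2a12 (chr7:27028940-27029089, plus strand): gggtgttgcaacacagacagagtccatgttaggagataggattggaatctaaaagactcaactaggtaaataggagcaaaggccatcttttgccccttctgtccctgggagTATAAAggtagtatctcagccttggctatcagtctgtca
Cyp2a22 (chr7:26939387-26939536, minus strand): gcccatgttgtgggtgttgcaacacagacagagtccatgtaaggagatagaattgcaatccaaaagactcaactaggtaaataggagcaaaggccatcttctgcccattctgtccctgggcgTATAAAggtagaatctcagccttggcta
Cyp2c37 (chr19:39992274-39992423, plus strand): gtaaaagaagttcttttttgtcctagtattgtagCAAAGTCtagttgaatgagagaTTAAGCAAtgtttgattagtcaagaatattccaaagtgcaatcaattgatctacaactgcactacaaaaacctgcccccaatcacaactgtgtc
Cyp2c50 (chr19:40089529-40089678, plus strand): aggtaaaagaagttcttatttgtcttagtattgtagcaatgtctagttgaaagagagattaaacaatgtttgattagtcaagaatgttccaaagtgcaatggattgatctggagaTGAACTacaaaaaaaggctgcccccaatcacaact
Cyp2c68 (chr19:39741102-39741251, minus strand): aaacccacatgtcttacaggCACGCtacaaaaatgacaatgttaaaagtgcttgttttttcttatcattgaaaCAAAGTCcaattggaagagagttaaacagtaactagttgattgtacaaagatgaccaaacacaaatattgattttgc
Cyp3a11 (chr5:145879855-145880004, minus strand): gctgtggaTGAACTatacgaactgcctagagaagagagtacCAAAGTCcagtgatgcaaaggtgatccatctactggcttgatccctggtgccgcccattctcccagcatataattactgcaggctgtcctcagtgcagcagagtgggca
Cyp3a25 (chr5:146009619-146009768, minus strand): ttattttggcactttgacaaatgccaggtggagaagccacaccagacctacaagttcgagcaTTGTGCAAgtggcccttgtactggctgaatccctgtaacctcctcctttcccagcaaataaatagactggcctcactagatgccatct
Cyp1a2 (chr9:57683656-57683805, minus strand): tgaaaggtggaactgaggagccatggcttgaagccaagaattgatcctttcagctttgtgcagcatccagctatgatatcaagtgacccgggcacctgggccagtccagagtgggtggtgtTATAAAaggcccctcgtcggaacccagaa

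Most P450 genes of families 1 to 3 were lower in the 4N livers. Of the 49 genes, 35 were lower and 2 were higher at an adjusted p under 0.05 in the authors' deposited table, against 7.41% of all genes lower and 7.94% higher. The median log2 fold change of the 49 was -3.32, against -0.0010 for all genes. Among the 35 that fell, 33 fell by more than 2-fold, 23 by more than 10-fold and 6 by more than 100-fold, whereas 19.6% of all genes called lower fell by more than 10-fold. The genes that fell reached across the range of abundance. Of the 26 members averaging 1000 normalized counts or more, 21 were lower and 2 higher, against 10.3% lower and 11.9% higher among all genes that abundant. Of the 15 members between 50 and 1000 normalized counts 13 were lower, and of the 8 members below 50 only Cyp2c55 was. These calls use normal tails for the statistic: taken instead from a t distribution with the 3 residual degrees of freedom that 5 libraries in 2 groups leave, 0 members and 0 genes of the whole table passed the adjustment, and 31 members were lower and 2 higher at an unadjusted p under 0.05. Of all 23022 genes, 2513 passed that unadjusted p with the t distribution, in either direction.

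**Figure D1:**
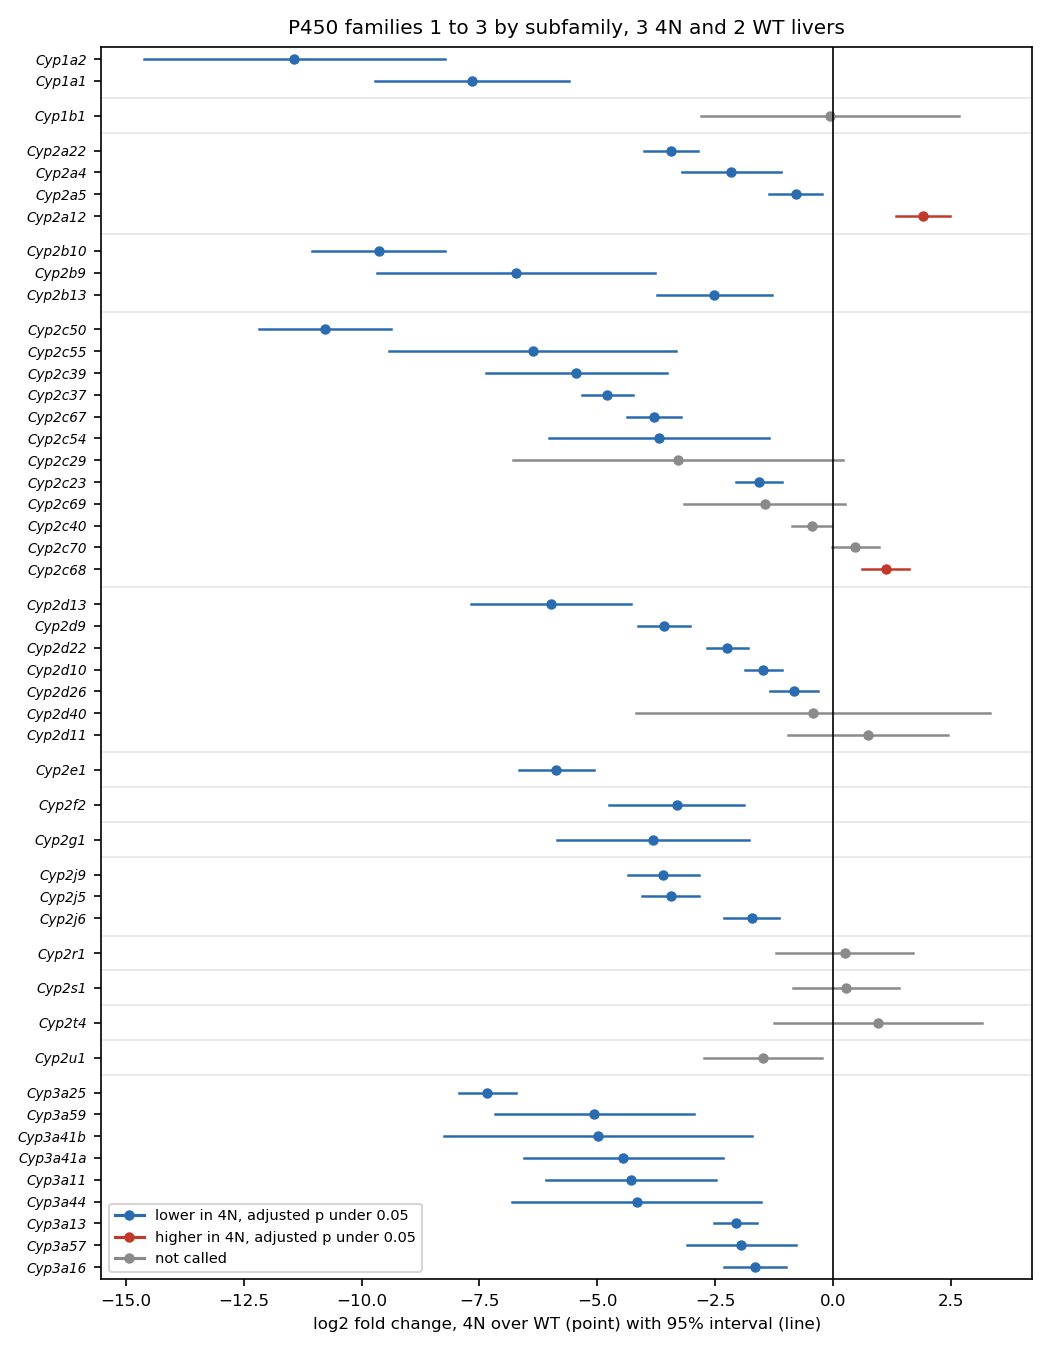
Log2 fold change (4N over WT, x axis) of each P450 gene of families 1 to 3, grouped by subfamily, from 3 4N and 2 WT livers; points are the fitted values and lines their 95% intervals. Most points lie left of 0 and 7 lie to the right, Cyp2a12 and Cyp2c68 called higher (red) and 5 not called (grey); Cyp2d12, which had no reads in the 4N group, is not drawn.

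In the Cyp1a subfamily, both enzymes of planar aromatic compounds were almost absent from the 4N livers. Cyp1a2, which clears caffeine and is a marker of the mature hepatocyte, had a fitted mean of 3576 normalized counts in WT and 1.30 in 4N. Its change on the log2 scale was -11.42 (SE 1.63, p = 1.57e-10 after adjustment) in the authors' deposited table, with a 95% interval from -14.62 to -8.23. The 4N value sums to 3.90 normalized counts over the 3 libraries, and the coefficient of variation within groups was wide, at 111%. With both limits, the size of this fall is known only within that interval. Cyp1a1, the inducible partner of Cyp1a2 that also acts outside the liver, had 191 normalized counts in WT and 0.945 in 4N. The log2 change of this gene was -7.66 (SE 1.05, p = 2.39e-11 after adjustment) in the authors' deposited table, with an interval from -9.72 to -5.60. Cyp1b1, a steroid hydroxylase that is made mainly outside hepatocytes, had 35.1 normalized counts in 4N and 36.9 in WT and was not called.

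The 4 Cyp2a genes, which hydroxylate coumarin, nicotine and steroids, went in both directions. Cyp2a22 was the most abundant of them in WT, at 6445 normalized counts, and had 595 in 4N. It fell by 3.44 on the log2 scale (SE 0.29, p = 9.69e-30 after adjustment) in the authors' deposited table. Cyp2a12, a steroid 7-alpha-hydroxylase, had 1001 normalized counts in WT and 3751 in 4N, and was the member with the largest rise. Its log2 fold change was 1.91 (SE 0.29, p = 2.64e-09 after adjustment) in the authors' deposited table, a 3.75-fold higher level. Cyp2a4 (testosterone) and Cyp2a5 (coumarin) had values of -2.16 and -0.79 in the authors' deposited table, with adjusted p-values of 0.000906 and 0.0429. The call of Cyp2a5 was lost, at an adjusted p of 0.664, after recentring on the median of 25 pan-hepatocyte genes, whose median log2 fold change was -0.60.

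In the Cyp2b subfamily, the classical targets of the constitutive androstane receptor, all 3 genes fell. Cyp2b10, the receptor's best-known target in mouse liver, had 1275 normalized counts in WT and 1.61 in 4N. In the authors' deposited table its log2 value was -9.63 (SE 0.72, p = 6.03e-38 after adjustment). Cyp2b9 was the most abundant of the 3, with 13532 normalized counts in WT and 128 in 4N, a change of -6.72 (SE 1.51, p = 0.000157 after adjustment) in the authors' deposited table. Cyp2b13 had 402 normalized counts in WT and 70.2 in 4N, a change of -2.52 (SE 0.62, p = 0.000789 after adjustment) in the authors' deposited table.

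Cyp2c, the largest subfamily with 12 genes, oxidises arachidonic acid and many drugs and showed the widest range of changes. Of its genes 7 were lower, 1 was higher and 4 were not called. Cyp2c50 was nearly absent from 4N, with 2803 normalized counts in WT and 1.60 in 4N. This was a change of -10.77 (SE 0.72, p = 3.95e-48 after adjustment) in the authors' deposited table. Its close copy Cyp2c37, an arachidonic acid hydroxylase, had 15504 normalized counts in WT and 562 in 4N, a change of -4.78 (SE 0.27, p = 4.87e-65 after adjustment) in the authors' deposited table. Cyp2c55, known for its expression in colon, and Cyp2c39, a retinoic acid hydroxylase, were called lower, at -6.37 and -5.44 in the authors' deposited table. Their fitted WT means were low, at 51.3 and 145 normalized counts. Cyp2c67, Cyp2c54 and Cyp2c23, an epoxygenase of arachidonic acid, were called lower at -3.80, -3.70 and -1.56 in the authors' deposited table.

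Cyp2c68 was the exception, with 14858 normalized counts in WT and 32192 in 4N. The log2 change of this gene in the authors' deposited table was 1.12 (SE 0.26, p = 0.000254 after adjustment), which is 2.17-fold higher in 4N. Cyp2c70, which makes the muricholic acids of mouse bile, had 12031 normalized counts in WT and 16761 in 4N. It was not called in the authors' deposited table (log2 fold change 0.48, SE 0.25; adjusted p = 0.213), but passed at an adjusted p of 0.000146 after the recentring on hepatocyte genes. Cyp2c40, a fatty acid hydroxylase, had 8516 normalized counts in WT and 6221 in 4N and was not called in the authors' deposited table (-0.45, SE 0.21; adjusted p = 0.147). Its sign turned under the same recentring. Cyp2c69 and Cyp2c29 were not called, at -1.45 and -3.29 in the authors' deposited table, with SEs of 0.87 and 1.79.

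Of the 8 Cyp2d genes, relatives of the human debrisoquine hydroxylase, 5 were lower and 3 were not called. Cyp2d26, with the highest mean of all 49 genes, had 55454 normalized counts in WT and 31239 in 4N. It fell by 0.83 on the log2 scale (SE 0.26, p = 0.0120 after adjustment) in the authors' deposited table, and this call was lost, at an adjusted p of 0.539, after the recentring on hepatocyte genes. Cyp2d10 had 17587 normalized counts in WT and 6314 in 4N, a change of -1.48 (SE 0.20, p = 8.85e-12 after adjustment) in the authors' deposited table. Cyp2d22, Cyp2d9 and Cyp2d13 were called lower at -2.24, -3.58 and -5.98 in the authors' deposited table, the last of them a transcribed pseudogene in RefSeq. Cyp2d11 and Cyp2d40, averaging 32.6 and 7.61 normalized counts in the authors' deposited table, were not called. Cyp2d12 had no reads in the 4N group and 5.29 normalized counts on average in the authors' deposited table, and was not called.

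Cyp2e1, the ethanol and acetaminophen oxidising enzyme and a marker of hepatocytes around the central vein, had 63510 normalized counts in WT and 1090 in 4N. Its log2 fold change was -5.87 (SE 0.41, p = 2.64e-44 after adjustment) in the authors' deposited table, 58.3-fold lower. Of 15 other genes of the zone around the central vein and of Wnt signalling, 4 were lower, 1 was higher and 10 were not called there. The median of these 15 was -0.37, and after the recentring on hepatocyte genes 1 was lower and 3 were higher. Their part in the value of Cyp2e1 was not tested. Cyp2f2, known for the bioactivation of naphthalene in airway club cells and for its periportal expression in liver, had 8335 normalized counts in WT and 836 in 4N. It fell by 3.32 (SE 0.73, p = 0.000115 after adjustment) in the authors' deposited table. Of 8 lung airway and alveolar markers 5 were listed, of which the surfactant genes Sftpa1 and Sftpc were lower and Sftpb, Sftpd and Scgb3a1 were not called. Their part in the value of Cyp2f2 was not tested, and the markers Scgb1a1, Scgb3a2 and Nkx2-1 were not among the genes listed. The 3 Cyp2j genes, epoxygenases of arachidonic acid, all fell in the authors' deposited table, with values of -3.60 for Cyp2j9, -3.44 for Cyp2j5 and -1.72 for Cyp2j6. Cyp2j5, the most abundant of them, had 7482 normalized counts in WT and 688 in 4N. Cyp2g1, known from olfactory mucosa, fell by 3.82 (SE 1.04, p = 0.00292 after adjustment) in the authors' deposited table, from 117 normalized counts in WT. The remaining 4 genes, each alone in its subfamily, were not called. Cyp2r1, a vitamin D hydroxylase, Cyp2s1, Cyp2t4 and the fatty acid hydroxylase Cyp2u1 had log2 fold changes of 0.25, 0.28, 0.95 and -1.48 in the authors' deposited table.

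All 9 Cyp3a genes, which encode the broadest drug oxidases of the liver, fell in the 4N livers. Cyp3a11, the main adult hepatic enzyme of this subfamily, had 76751 normalized counts in WT and 3945 in 4N. In the authors' deposited table its log2 value was -4.28 (SE 0.92, p = 6.74e-05 after adjustment). Cyp3a25 had 44672 normalized counts in WT and 278 in 4N, a change of -7.33 (SE 0.31, p = 9.92e-122 after adjustment) in the authors' deposited table. It ranked at number 3 by smallest p among all genes listed. Cyp3a16, known as a fetal form, had 29596 normalized counts in WT and 9411 in 4N, a change of -1.65 (SE 0.33, p = 1.83e-05 after adjustment) in the authors' deposited table. This was the smallest of the 9 falls. Cyp3a44 had 23867 normalized counts in WT and 1330 in 4N, a change of -4.17 (SE 1.35, p = 0.0175 after adjustment) in the authors' deposited table. Cyp3a59, Cyp3a41b, Cyp3a41a, Cyp3a13 and Cyp3a57 were called lower at -5.06, -4.98, -4.45, -2.07 and -1.95 in the authors' deposited table. The call of Cyp3a57 was lost, at an adjusted p of 0.0624, after the recentring on hepatocyte genes.

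**Figure D2:**
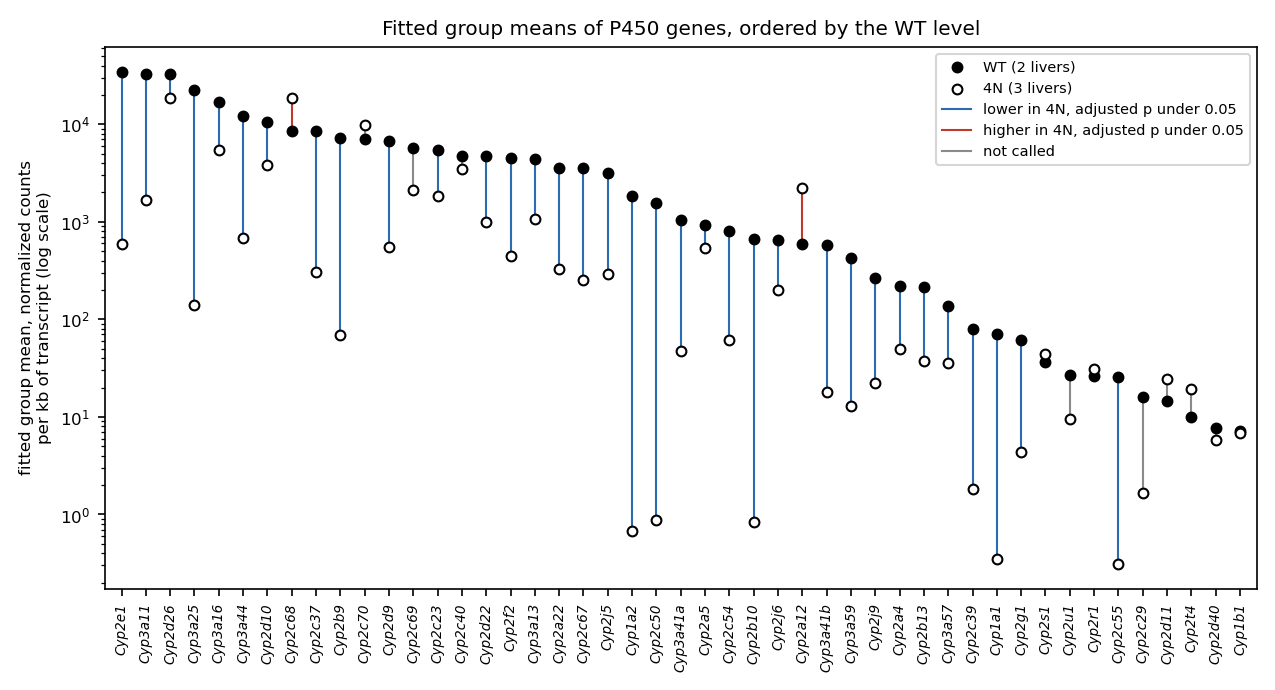
Fitted group mean per kb of transcript (log axis) of the P450 genes with a coding transcript, ordered by their level in WT; filled points are the WT mean (2 livers), open points the 4N mean (3 livers), and the line joins the 2 means of a gene. Cyp2e1, Cyp3a11 and Cyp2d26 lead in WT, and the open points scatter from Cyp2c68 at the top to Cyp2c55, at 0.31, at the bottom. Cyp2d12, with no reads in 4N, is not drawn, and no error is shown.

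Levels per kb of transcript, which can be compared between genes, were used to describe the P450 pool of each group for the 48 members with a coding transcript. The summed level was 250444 normalized counts per kb in WT and 74288 in 4N, 3.37-fold lower, with no error available for sums. Cyp2e1 held 13.8% of the WT pool and Cyp3a11 held 13.1%, with Cyp2d26 close behind at a level of 32620 against 32744 per kb for Cyp3a11. The 4N pool was led by Cyp2c68 with 25.1%, Cyp2d26 with 24.7% and Cyp2c70 with 13.1%. Of the 10 leading genes of each group, 5 were shared. By subfamily, Cyp3a went from 36.3% of the WT pool to 12.3% of the 4N pool and Cyp2e from 13.8% to 0.80%. Cyp2c went the other way, from 18.4% to 49.1%, although its own summed level per kb was 46016 in WT and 36449 in 4N. Summed over only the members with a lower level in 4N, the drop was 190633 per kb, while the other members gained 14477. Cyp2e1, Cyp3a11 and Cyp3a25 together made up 45.8% of that drop before gains.

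**Figure D3:**
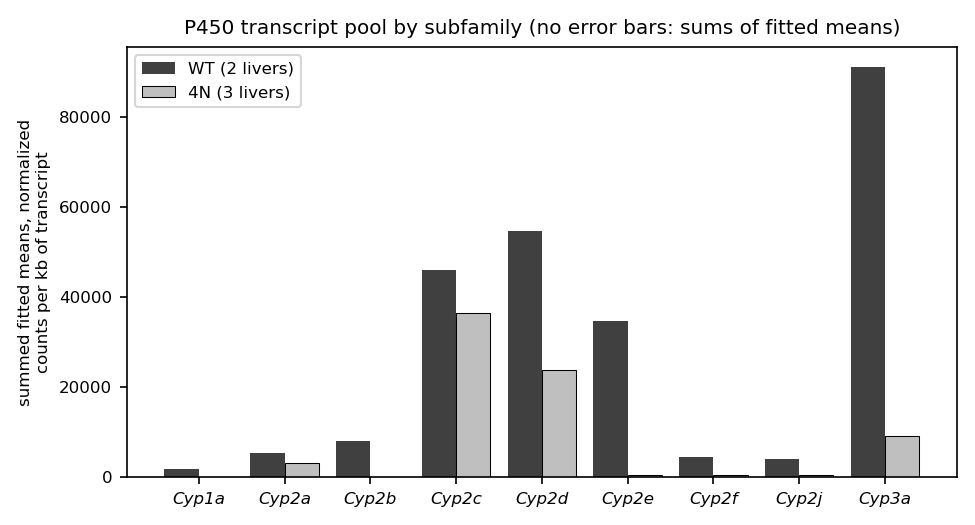
Summed fitted means per kb of transcript by P450 subfamily in WT (dark bars, 2 livers) and 4N (light bars, 3 livers), for subfamilies above 1000 in WT; no error bars are available for sums. The Cyp3a bar falls from 90982 in WT to 9115 in 4N, while the Cyp2c bars stand close together.

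Gene clusters differed in how evenly their members changed. Cyp2c68 lay next to Cyp2c67, which fell, among the listed P450 genes of chromosome 19, while Cyp2a12 was the 1 riser among the Cyp2a and Cyp2b genes of chromosome 7. The Cyp3a genes of chromosome 5 all fell, as did the 3 Cyp2b genes. Gene order was taken from RefSeq gene positions (build GRCm38), which is not the build of the deposited table.

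**Figure D4:**
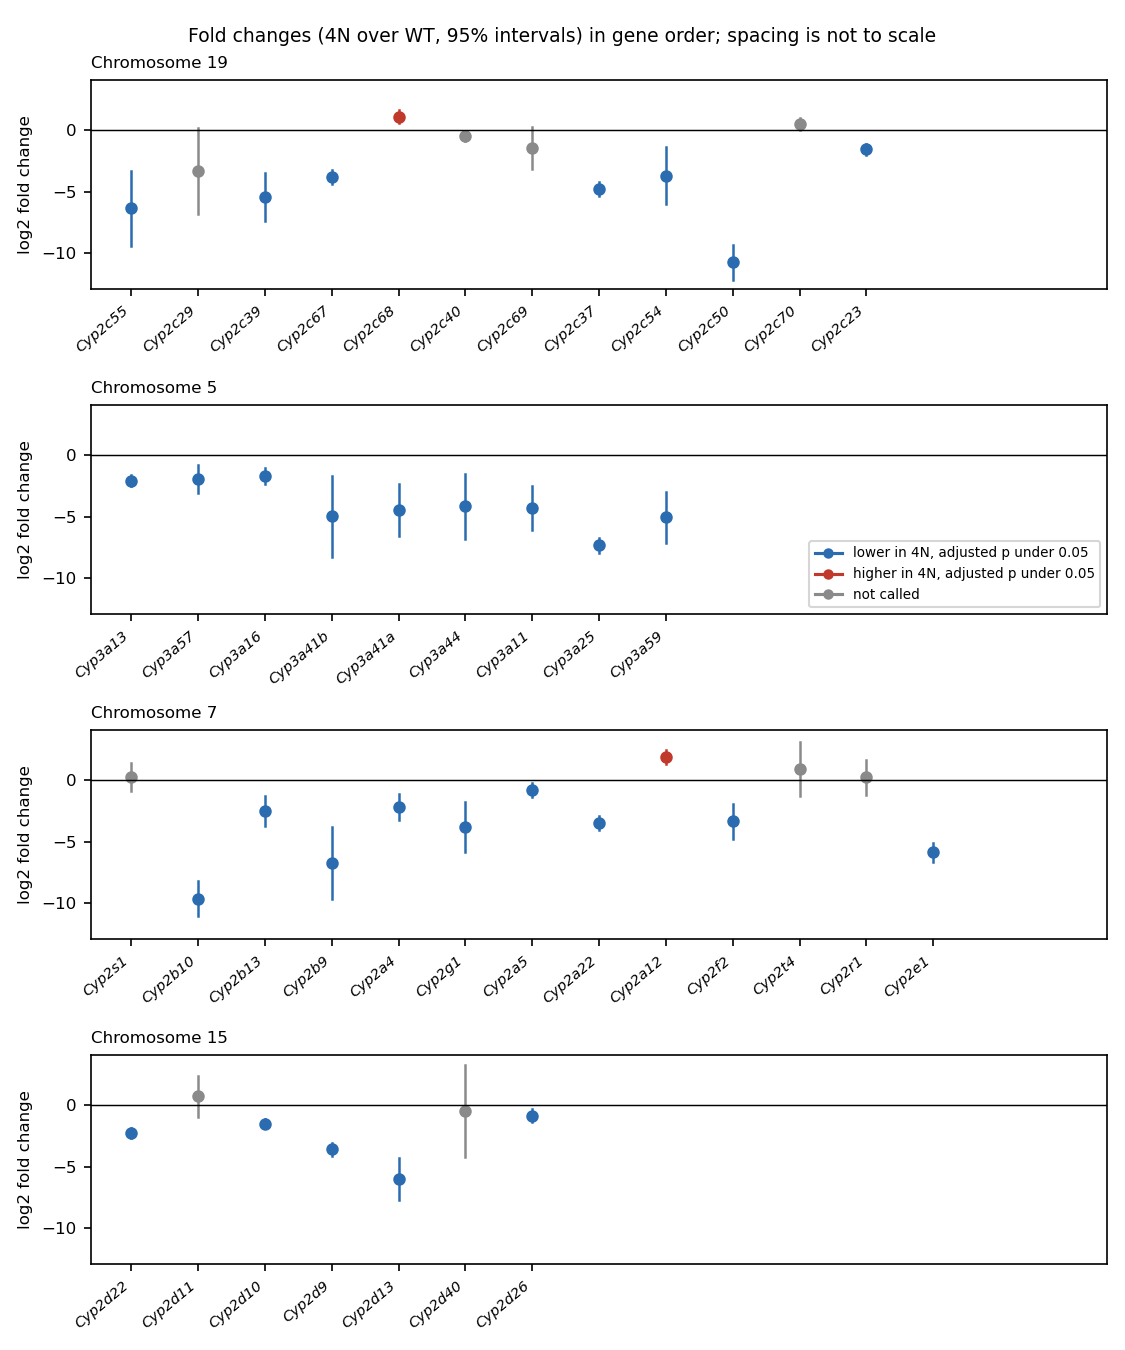
Log2 fold change (4N over WT) with 95% intervals for P450 genes in their order along chromosomes 19, 5, 7 and 15; spacing is not to scale, and Cyp2d12 is not drawn. On chromosome 19 Cyp2c68 stands above 0 beside Cyp2c67 below it, and on chromosome 7 Cyp2a12 stands above 0 beside Cyp2a22.

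Near-identical copies limit the reading of single genes. Among 136 pairs of members within a subfamily, 31 pairs from 25 genes had over 90% identity between coding transcripts and 13 had over 95%. Cyp3a41a and Cyp3a41b had 99.9% identity, Cyp2a12 and Cyp2a22 had 96.8%, and Cyp2c67 and Cyp2c68 had 97.0%, so reads of these copies may be split uncertainly between them. Summed over Cyp2a12 and Cyp2a22, the fitted means were 7446 normalized counts in WT and 4346 in 4N. Summed over Cyp2c40, Cyp2c67, Cyp2c68 and Cyp2c69, they were 38954 in WT and 42317 in 4N. The sum over Cyp2c37, Cyp2c50 and Cyp2c54 was 29.3-fold lower in 4N. These sums carry no error.

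The promoters of the copies were also alike. Cyp2a12 and Cyp2a22 shared 93.6% of 219 aligned bases of the 250 before the start, and Cyp2c37 and Cyp2c50 shared 90.8% of 228. Promoter sequences from RefSeq (build GRCm38.p6, 250 bases before to 50 after the start) matched 42 of the 49 members. Cyp2c23, Cyp2c54, Cyp2d12, Cyp2d13, Cyp2d22, Cyp2g1 and Cyp2u1 had no entry. TATAAA was found on either strand in 24 of 42 members, 57.1%, against 8.75% of the promoters of listed genes. The Hnf4 core CAAAGTC was found in 38.1% of members against 4.28%, the nuclear receptor site AGGTCA in 38.1% against 13.6%, and the C/EBP site TTGCNNAA in 26.2% against 9.08%. The Foxa core TGTTTAC was found in 16.7% of members against 2.77% of promoters. The aryl hydrocarbon receptor core GCGTG was found in 14.3% of members against 45.8%. AGTTCA was found in 14.3% against 10.99%, the Hnf1 site GTTAAT in 14.3% against 5.08% and the control CACGTG in 2.38% against 9.20%. TATAAA was in 17 of 30 lower members and 7 of 12 others, and CAAAGTC in 11 and 5. AGGTCA was in 12 and 4, TTGCNNAA in 9 and 2, and TGTTTAC in 7 and 0. AGTTCA was in 4 and 2, GCGTG and GTTAAT each in 3 and 3, and CACGTG in 1 and 0. These splits were not tested. Copies share promoter sequence, so the members are not independent, and a match is a description of letters only.

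The spread between livers was wide for several abundant members. An SE above that of 90% of the 500 genes nearest in mean was found for 22 of the 49 genes, and for 11 of the 26 that averaged 1000 or more. Converted to a coefficient of variation (CV) within groups, Cyp2b9 reached 114%, Cyp1a2 111%, Cyp3a44 102% and Cyp3a11 69.8%, where genes of like mean had medians between 17.0% and 19.5%. Cyp3a25 and Cyp2e1 had lower values of 23.0% and 30.8%, which were still above the medians of 16.9% and 17.1% for genes of like mean. Cyp2b10 and Cyp2c50, nearly without reads in 4N, were among the 22 by SE. Their CVs of 22.6% and 21.5% lay near the medians of 24.3% and 20.1% for genes of like mean. The same held for Cyp1a1 and Cyp2c55, with CVs of 46.1% and 85.4% against medians of 45.6% and 85.5%. The SE also rises where 1 group has few reads, so not all of the 22 had a wide spread between livers. Among the members of wide SE, Cyp2b9, Cyp3a41a, Cyp3a41b and Cyp3a44 are known to be expressed more in female than in male adult mouse liver. Members of narrower SE are not sorted by sex difference here. The 4 Y-linked genes Ddx3y, Eif2s3y, Kdm5d and Uty had an SE of 2.71 to 2.91 in the authors' deposited table, none called, and the part of embryo sex in the P450 spread was not tested.

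**Figure D5:**
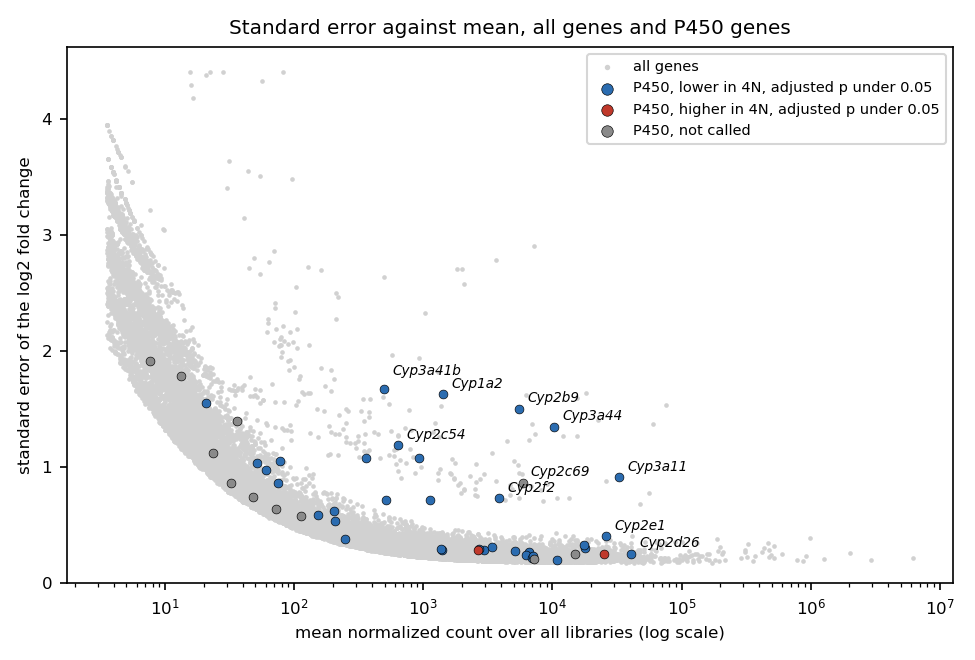
SE of the log2 fold change against the mean normalized count (log axis) for all genes (grey) and the P450 genes (coloured by call). Cyp2b9, Cyp3a44, Cyp3a11, Cyp1a2 and Cyp2f2 stand above the band of genes with like mean, and Cyp2e1 lies above it by less, at an SE of 0.41, whereas Cyp2d26 lies within the band.

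Genes that act around the P450 enzymes went both ways, counted in the authors' deposited table. Of 30 regulators, 8 were lower and 2 higher, with a median log2 fold change of -0.25. After the recentring on hepatocyte genes the balance of their calls reversed, to 3 lower and 10 higher with a median of 0.35. Nr1i3 fell by 4.36 (SE 0.41, p = 6.53e-24 after adjustment), Nr0b2, a corepressor induced by bile acids, by 4.08 and Nr1i2 by 0.94 in the authors' deposited table, and the call of Nr1i2 was lost after the recentring (adjusted p = 0.338). Ahr and Hnf4a, the hepatocyte nuclear receptor that binds many P450 promoters, had values of -0.46 and -0.34 there and were not called. Onecut1, a factor of early hepatocytes, rose by 1.42 in the authors' deposited table. Of 18 measured targets of Nr1i2 and Nr1i3 outside the P450 genes, 9 were lower and 1 higher, with a median of -0.66. After the recentring on hepatocyte genes these targets counted 4 lower and 3 higher, with a median of -0.06. Of the 6 measured targets of Ahr, 0 were called in either direction by the authors' Wald test and 1 had an unadjusted p under 0.05, with a median of 0.06. After the recentring the Ahr targets counted 0 lower and 2 higher, with a median of 0.66. Por fell by 0.89 (adjusted p = 0.0110) in the authors' deposited table, and Cyb5a, a further electron donor, by 0.79; both calls were lost after the recentring on hepatocyte genes. Of the 15 genes of electron supply and heme turnover that hold these donors, 3 were lower and 6 higher, and 0 were lower and 9 higher after the recentring. Alas1, the first step of heme synthesis in liver, was not called (-0.31 in the authors' deposited table), whereas the later steps Alad and Fech rose by 2.22 and by 1.19 there. The erythroid genes, which also need heme, were higher in 19 of 20 cases, among them the erythroid first step Alas2 at 1.82 in the authors' deposited table, and their part in the heme genes was not tested. The 33 genes with symbols of other P450 families include the opposite-strand transcript Cyp4x1os, not called, and Cyp26c1, called higher with no reads in WT. Of these 33, 7 were lower and 3 higher with a median of -0.46. Among these, Cyp4a14, a fatty acid hydroxylase, fell by 6.97 and Cyp7a1, the rate-limiting enzyme of bile acid synthesis, rose by 0.80 in the authors' deposited table. After the recentring these other families counted 7 lower and 5 higher, with a median of 0.14.

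Markers of cell types moved beside the P450 genes. Of the 25 pan-hepatocyte genes, 13 were lower and 0 higher in the authors' deposited table (0 higher at an unadjusted p under 0.05), with a median log2 fold change of -0.60 against -3.32 for the P450 genes. The smallest adjusted p-values among these 25 were those of Hpx (-2.67), Apoc3 (-4.07) and Fabp1 (-1.63), whereas 12, Alb among them, were not called. Of 20 erythroid genes, 19 were higher in the authors' deposited table, with a median of 1.54. Their part in the P450 result was not tested, and in bulk tissue fewer cells of a type and less RNA per cell cannot be told apart. After recentring on the hepatocyte genes, 32 P450 genes remained lower and 3 were higher, with a median of -2.72. Among the other marker lists, macrophage genes had 1 lower and 4 higher of 12, granulocyte genes 0 lower and 2 higher of 12, and megakaryocyte genes 0 called of 8 by the authors' Wald test (2 at an unadjusted p under 0.05). Endothelial genes had 2 lower of 10, bile duct genes 1 lower of 9, stellate and mesenchymal genes 2 lower and 3 higher of 11, and fetal hepatoblast genes 1 lower and 4 higher of 12. Lung genes had 2 lower of 5 listed, and intestinal genes 2 lower and 1 higher of 5.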

How the data were processed

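Poly(A) RNA of E18.5 liver tissue (4N, n = 3; WT, n = 2) was sequenced. Per the file headers, the deposited table holds for each gene a mean normalized count (the deposited signal), a log2 fold change and its SE (the deposited log2 values), a Wald statistic (the deposited score), a p-value and an adjusted p-value (the deposited p-values); the submitters' processing notes name build GRCm39. An aligner and a read counter are not named there (not given in the sources used here). Checks on the file found the p-values to be 2-sided normal tails of the statistic and the adjusted values to be Benjamini-Hochberg over all 23022 genes. Library depth is unknown, since the table holds no counts per library.

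From these values, fitted group means, 95% normal intervals and within-group CVs (negative binomial, 1 dispersion per gene) were computed in Python 3.11.15 (pandas 2.3.3, scipy 1.17.1) and tested on simulated data. A call is an adjusted p under 0.05. Members were named fully where they led a subfamily, were among the 10 most abundant or the 10 largest called falls, or rose. List genes were drawn from the 3 of smallest adjusted p per direction. Hhex, Alb, Por, Nr1i2, Nr1i3, Ahr and Hnf4a were named in any case. Some others, such as Alas1, Alas2, the remaining lung markers and the Y-linked genes, were named outside this rule. The members and lists were chosen with earlier results of these data known. Levels per kb used 1 coding transcript per gene (GENCODE M21). Alternatives changed thresholds, null, reference distribution, low-value filters, scaling and copies.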

Additional observations from a re-analysis of the deposited data

How the results depend on the processing

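With 35 members lower, 2 higher and a median log2 fold change of -3.32, the direction held in every alternative that made calls. A t reference with 3 degrees of freedom called 0 lower and 0 higher among the members and 0 among all genes, with a smallest adjusted p of 0.372. At an unadjusted p under 0.05 it gave 31 lower and 2 higher members, and 2513 of all 23022 genes in either direction. Tested against a 2-fold change, 20 were lower and 0 higher (1 higher at an unadjusted p under 0.05), and against a 1.5-fold change 28 were lower and 1 higher. Among all genes, 351 were lower and 256 higher against a 2-fold change, and 588 lower and 521 higher against a 1.5-fold change. Keeping genes with a mean of at least 1000 left 21 lower of 26 and a median of -2.78, and at least 50 a median of -3.44. Recentring on the hepatocyte genes, which moved the median of all genes to 0.60, gave 835 genes lower and 7089 higher against 1705 and 1828, and a member median of -2.72. Counting near-identical copies once, an alternative chosen after seeing the data, left 28 lower and 1 higher of 39. An adjusted p under 0.01, recentring on the most abundant genes and leaving out genes with no reads in 1 group gave 30, 35 and 35 lower. Among all genes these settings gave 1164, 1921 and 1610 lower. No paired analysis was possible because the groups share no replicate numbers. Leaving out each replicate and copies by protein identity were not run, since single libraries and protein sequences were not used here.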

Other observations

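Of the symbols ending in -ps, which were left out of the family counts, 8 were pseudogenes of P450 families 2 and 3. Of these, 6 were lower and 0 higher in the authors' deposited table (Wald test; 0 higher at an unadjusted p under 0.05 too). Their median log2 fold change was -3.06 without the 2 that had no reads in 1 group.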
